A study of Homo sapiens with 238 samples.

Results

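αRes2 is a single-cell clone of K562 in which a G-quadruplex (G4) was put back into the α-globin enhancer HS-40, and it was compared here with αMut1, the clone it was made from. K562 is a human chronic myelogenous leukemia line with erythroid character, grown in RPMI1640 with fetal bovine serum. αMut1 carries substitutions at guanines of HS-40 designed to prevent the G4 from folding, and αRes2 was derived from αMut1 by a second round of CRISPR-Cas9 editing that inserted a G4-forming sequence of unrelated primary sequence. The members are the poly(A) RNA-seq libraries whose titles name αRes2 (numbers 1 to 8) or αMut1 (numbers 1 to 7), which makes 15 of the 62 RNA-seq libraries and of the 238 samples of all assays in the series. The unedited line αWT (8 libraries) and the other restored clones αRes1 (8), αRes3 (4) and αRes4 (4), also made from αMut1, are used as references. αMut2 (4 libraries), a second clone homozygous for G4 mutations in HS-40, enters only the fit of 43 libraries. Every line is 1 clone or 1 population, no cells were treated, and the labels give no culture or date. The p-values therefore measure the spread between libraries of a line and not between independent edits.

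HS-40 lies in an intron of NPRL3, upstream of the α-globin genes, and contacts their promoters over a distance in erythroid cells. A G4 is a 4-stranded fold that guanine-rich DNA can form by stacking planes of 4 guanines. K562 expresses embryonic and fetal globins, with HBZ (ζ) as the embryonic and HBA1 and HBA2 (α) as the fetal and adult α-like chains, which pair with β-like chains to give hemoglobin. The question was how transcript levels differed after the second edit, at the α-globin genes and across the genome.

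Levels are CPM, counts per 1e6 counted reads on TMM-scaled library sizes. Differences are log2 changes, αRes2 minus αMut1, from edgeR's quasi-likelihood test on the 18247 genes that averaged 10 or more counts. A gene is called changed where the Benjamini-Hochberg adjusted p is under 0.05 and the log2 change exceeds 0.5 either way. Adjusted p-values are edgeR's, except where a permutation test is named. Counted reads ranged from 4270215 to 29799699 in αRes2 and from 17701807 to 30174241 in αMut1. The 10 K562 markers stood at 1 CPM or more in both lines. The marker lists of B cells, of T cells, and of monocytes and granulocytes, each summed by itself, reached at most 3.39 CPM in any library. The 3 epithelial markers summed to more, 51.14 to 75.13 CPM in αRes2 and 37.98 to 60.9 CPM in αMut1. Among them EPCAM averaged 62.7 CPM in αRes2 and 47.5 CPM in αMut1, while KRT5 and CDH1 averaged at most 0.18 CPM. Megakaryocyte and fibroblast markers are given below.

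The libraries numbered 1 to 4 and those numbered 5 to 8 form sets that stood apart, most of all in αMut1. Between αMut1 libraries 5 to 7 and 1 to 4, 5225 genes were called (28.9% of 18077), against 2738 (15.1%) between αRes2 libraries 5 to 8 and 1 to 4. Over the 2000 genes whose mean log2 CPM varied most between lines and sets, the 2 sets of αMut1 had a correlation of 0.705, against 0.853 for αRes2 and 0.931 for αWT. αMut1 libraries 5 to 7 had a correlation of 0.926 with αRes1 libraries 1 to 4, and αMut1 libraries 1 to 4 had 0.810 with αRes1 libraries 5 to 8, whereas the 2 sets of αRes1 had 0.542, with 6913 genes called between them (38.2%). These correlations are descriptions across genes of one genome and share depth and composition.

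Single genes showed the same crossing. CHST15 averaged 0.151 CPM in αMut1 1 to 4, 20.9 in αMut1 5 to 7, 23.7 in αRes1 1 to 4 and 0.117 in αRes1 5 to 8. FGF13 averaged 0.0904, 63.3, 81.0 and 0.131 CPM in the same order, and LRATD1 34.3, 0.189, 0.681 and 45.6 CPM. αRes2 had like levels in both of its sets for these genes, with FGF13 at 45.3 and 47.9 CPM and LRATD1 at 3.85 and 5.96 CPM. The counts cannot tell which set of αMut1 carries the right label, nor whether a culture changed between the sets, because HS-40 lies outside the counted exons. Results are therefore given over all 15 libraries, with values within numbers 1 to 4 and within 5 to 8 for the genes on which a result turns.

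αRes2 5 to 8 also hold counts of pseudoautosomal genes, which are at 0 in αRes2 1 to 4 and in all αMut1 libraries. The libraries with and without these counts are treated here as of 2 alignment references, which the sources do not state. The 25 genes counted under one reference only, 16 of them called, are not named. αRes2 library 3 was the shallowest, and 3.48% of its counts were mitochondrial. In numbers 5 to 8 the reference and the line cannot be told apart.

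In the fit of 43 libraries, 1635 genes were called between the 15 libraries of the 2 lines (8.96%). Of these, 496 were higher (2.72%) and 1139 lower (6.24%) in αRes2. A fit of the 15 libraries alone called 1547 genes, 400 higher and 1147 lower. Within numbers 1 to 4, 3177 of 18077 genes were called (17.6%), 1218 higher (6.74%) and 1959 lower (10.8%). Within numbers 5 to 8, 2412 were called (13.3%), 1143 higher (6.32%) and 1269 lower (7.02%). Genes called over all libraries that also passed adjusted p below 0.05 in the same direction in both sets numbered 936 (5.13%), 275 higher (1.51%) and 661 lower (3.62%). The change itself differed between the sets for 3258 genes (18% of 18077, interaction term), and 297 genes called in both sets had opposite directions. Without TMM scaling the median change of all genes moved from 0.01 to -0.06, and 19.9% of the calls were higher in place of 30.3%. Libraries of the 2 lines did not overlap for 317 genes higher (1.74%) and 599 genes lower (3.28%) in αRes2, 916 in all (5.02%).

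HBA1, HBA2 and HBZ all rose in αRes2, in both library sets. HBA1 (chr16:176680-177522, plus strand, hg38) stood at 172 CPM in the lowest αRes2 library, 254 at the median and 330 in the highest, against 108, 133 and 178 CPM in αMut1. Only the lowest αRes2 library, number 1 at 171.9 CPM, fell inside the αMut1 range, below αMut1 5 and 7. The change was 0.88 (SE 0.17, adjusted p = 0.000224), a 1.84-fold difference. It was 0.98 within numbers 1 to 4 (adjusted p = 3.42e-07) and 0.74 within 5 to 8 (adjusted p = 0.000128).

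HBA2 (chr16:172876-173710, plus strand) ranged from 107 to 162 CPM in αRes2, median 148, and from 56.3 to 107 CPM in αMut1, median 69.4. The 2 lines touched at 107.4 CPM, in αRes2 library 3 and αMut1 library 6. HBA2 rose by 0.81 (SE 0.19, adjusted p = 0.00212), by 1.00 within 1 to 4 and by 0.59 within 5 to 8, and these 2 changes differed (interaction -0.40, adjusted p = 0.032). HBA1 and HBA2 have near-identical messages, and the rule used for reads that match both is not stated, so the split between them is uncertain. Their sum was 285 to 469 CPM in αRes2 and 164 to 281 CPM in αMut1, without overlap. A two-sided exact permutation test of the sum over the 15 libraries gave p = 0.000311 (adjusted p = 0.000622 over 6 tests). Within each set the exact permutation test gave 0.0286, the smallest value those libraries allow (adjusted p = 0.0429).

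HBZ (chr16:142728-154503, plus strand) stood at 326, 488 and 501 CPM (lowest, median, highest) in αRes2 and at 195, 296 and 312 CPM in αMut1. Every αRes2 library lay above every αMut1 library, the closest pair being number 1 of each line. HBZ rose by 0.75 (SE 0.19, adjusted p = 0.00386), by 0.73 within 1 to 4 and by 0.73 within 5 to 8. In the exact permutation test over 15 libraries, HBZ gave p = 0.000311 (adjusted p = 0.000622) and HBA1 p = 0.000622 (adjusted p = 0.000932).

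HBQ1 (θ), a minor α-like gene at the end of the cluster, was not called. It ranged from 5.59 to 16.5 CPM in αRes2 and from 5.85 to 17.6 CPM in αMut1, and the lines overlapped over nearly their whole ranges. Its change was 0.14 (SE 0.22), 0.55 within 1 to 4 (called, adjusted p = 0.00187) and -0.16 within 5 to 8, and the sets differed (interaction -0.71, adjusted p = 0.00591). HBM (μ) stood at 0 to 0.163 CPM in αRes2 and 0 to 0.0693 CPM in αMut1, too few reads for the edgeR fit. Of the 4 tested α-like globins, 3 were called, all higher, with a median change of 0.78 beside 0.01 for all genes.

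Among the β-like globins, encoded on chromosome 11 and not targeted by the edit, HBE1 (ε), the embryonic β-like gene, was the member called. It stood at 35.2, 56.8 and 80.5 CPM in αRes2 and 20.5, 25.3 and 54.5 CPM in αMut1, so that αRes2 libraries 1 to 4 lay within the αMut1 range. HBE1 rose by 0.65 (SE 0.19, adjusted p = 0.012), by 0.85 within 1 to 4 and by 0.42 within 5 to 8, where it was not past the 0.5 limit. It was not called when only the 15 libraries were fitted. HBG2 (Gγ, fetal) changed by 0.45 (adjusted p = 0.0142), short of that limit, and HBG1 (Aγ, fetal) by 0.33 (adjusted p = 0.105). αRes2 library 3 held the highest HBG2 level, 816.5 CPM, while the other 14 libraries ran from 256 to 458 CPM. HBB (β, adult) changed by 0.89 (adjusted p = 0.0887) at a median of 2.14 CPM in αRes2, and HBD (δ, minor adult) by -0.59 (adjusted p = 0.0894). With the library number as a block, HBB (0.77, adjusted p = 0.018) and HBD (-0.67, adjusted p = 0.000457) were called.

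The counts of α-like over β-like globins had a ratio of 0.8998 ± 0.104 (mean ± SD, n = 8) in αRes2 and 0.655 ± 0.0426 (n = 7) in αMut1. The lowest αRes2 library, 0.787, lay above the highest αMut1 library, 0.728. Within the α-like genes, the ratio of HBZ to HBA1 plus HBA2 was 1.12 ± 0.0772 in αRes2 and 1.22 ± 0.166 in αMut1, with overlapping ranges.

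Against unedited αWT, the same genes gave the following separate values, on αRes2 libraries that also enter the comparison with αMut1. HBA1 was higher in αRes2 than in αWT by 0.59 (adjusted p = 0.0041), HBA2 by 0.78 (adjusted p = 0.000776), HBZ by 0.88 (adjusted p = 0.000162) and HBE1 by 1.28 (adjusted p = 5.27e-07), while HBQ1 was lower by 0.88 (log2 change -0.88, adjusted p = 0.00106). αMut1 itself differed from αWT at HBA1 by -0.31 within numbers 1 to 4 (adjusted p = 0.0403) and by -0.24 within 5 to 8 (adjusted p = 0.163), neither past 0.5. In all, 3408 genes were called between αRes2 and αWT (18.7%).

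The genes that flank the α-globin cluster were not called. Of 16 listed neighbours 13 were tested, with 0 called higher, 0 called lower and a median change of 0.09. NPRL3, whose intron holds HS-40 and which encodes a subunit of the GATOR1 complex, had a change of 0.14 (SE 0.12, adjusted p = 0.498). LUC7L, an RNA splicing factor, had -0.01. FAM234A stood at 39.4 to 58.3 CPM in αRes2 and at 61.2 to 73.9 CPM in αMut1, without overlap, a change of -0.35 (adjusted p = 0.00294). In the 10 Mb of chromosome 16 nearest its short-arm end, 193 tested genes had a median change of 0.06, 0.14 within 1 to 4 and -0.06 within 5 to 8. Against αWT the same window had a median of -0.54 in αRes2 and -0.58 in αMut1.

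Of 16 iron genes 1 was called (6.25%, beside 8.96% of all genes). TFR2, the transferrin receptor of iron sensing, fell by 0.57 (adjusted p = 2.36e-05), from a median of 218 to 166 CPM. The change was -0.499 within 1 to 4, short of the limit, and -0.68 within 5 to 8, and without αRes2 libraries 3 and 4 0 iron genes were called. Of 32 red cell membrane and blood group genes, 1 rose and 4 fell, or 15.6% beside 8.96% of all genes: RHCE, an Rh blood group carrier, rose by 0.69 (adjusted p = 0.00161), and GYPE (glycophorin E) fell by 0.58 (adjusted p = 0.00155) and CD47, the ligand of SIRPα, by 0.54 (adjusted p = 0.00169), beside CD44 and TSPAN33. RHCE changed by 1.03 within 1 to 4 and by 0.31 within 5 to 8, GYPE by -0.29 and -0.97, and CD47 by -0.56 and -0.40, so that each was called in 1 set. SOCS2, a feedback inhibitor of cytokine signalling, fell by 0.57 (adjusted p = 5.28e-08). It changed by -0.62 within 1 to 4 and by -0.44 within 5 to 8, where it was short of the limit. It was the 1 of 19 erythropoietin and KIT signalling genes called (5.26%). Among 25 erythroid transcription factors, which include GATA1 and TAL1, 0 were called (median change 0.08), and among 18 regulators of globin switching, which include KLF1, also 0 (median 0.14). With the block 1 of each was called lower, in both lists BCL11A, a repressor of fetal globin genes, which did not pass the count filter over 43 libraries.

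Interferon-stimulated genes, which encode antiviral and antigen presentation proteins, formed the list with the most genes lower. Of 33 tested members 17 fell and 1 rose (54.5% called, beside 8.96% of all genes), with a median change of -0.56. Within numbers 1 to 4, 15 fell and 0 rose, and within 5 to 8, 17 fell and 1 rose. Of the 17 over all libraries, 15 also passed in the same direction in both sets. Of the 33 tested, 14 were lower without overlap between the lines. Over all genes 3.62% passed lower in both sets and 3.28% were lower without overlap. PSMB8, an immunoproteasome subunit, stood at 0 to 0.243 CPM in αRes2, with 11 counts over its 8 libraries, and at 2.095 to 3.56 CPM in αMut1, where 580 counts were found. MX2, a dynamin-like antiviral GTPase, stood at 0.784 to 1.79 CPM in αRes2 and 3.22 to 9.95 CPM in αMut1, a fall of 2.51 (SE 0.26, adjusted p = 1.32e-09).

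The HLA class I genes, which present peptides to T cells, fell in both sets. HLA-C ranged from 16.6 to 24.9 CPM in αRes2 (median 19.6) and from 39.3 to 50.2 CPM in αMut1 (median 48.0). It fell by 1.201 (SE 0.07, adjusted p = 5.56e-16), by 1.21 within 1 to 4 and by 1.13 within 5 to 8. HLA-B ranged from 5.35 to 8.99 and from 11.6 to 20.0 CPM and fell by 1.19 (SE 0.11, adjusted p = 5.38e-11). In αWT, HLA-C averaged 7.59 ± 0.714 CPM (n = 8), below both lines. HLA genes are a multigene family, so reads shared between them are uncertain.

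Further members are named here after their values were seen. USP18, the protease that removes ISG15, fell by 1.76, IFIT1, a binder of viral RNA, by 1.45, PSMB9, an immunoproteasome subunit, by 1.42, and OAS3, an oligoadenylate synthetase, by 1.17. Of these only IFIT1 overlapped between the lines, at 0.785 to 0.979 CPM. IFITM3, a membrane protein that blocks virus entry, fell over all libraries by 2.46 (adjusted p = 0.00758) but differed by 0.19 within 1 to 4 and -3.35 within 5 to 8. IFITM1, of the same family, was the member that rose, from 114, 132 and 177 CPM in αMut1 to 148, 205 and 250 CPM in αRes2. The lines overlapped, and the change was 0.51 (SE 0.12, adjusted p = 0.00213), or 0.45 with the number as a block, below the limit.

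Promoters of 4 interferon-stimulated genes are shown because the bases that interferon-activated factors are known to bind can be read in them, with IFI6, IFIH1 (the RNA sensor MDA5) and TAP1 lower and IFITM1 higher in αRes2. They were chosen after their values were seen. Each sequence is 250 bases before to 50 after the start of transcription in RefSeq (GRCh38.p14), 5′ to 3′ on the gene's strand, with capitals marking GAAA, any 2 bases and GAAA again, or the reverse complement (TTTC, any 2 bases, TTTC), where overlapping matches run together.
IFI6 (chr1:27672143-27672442, minus strand): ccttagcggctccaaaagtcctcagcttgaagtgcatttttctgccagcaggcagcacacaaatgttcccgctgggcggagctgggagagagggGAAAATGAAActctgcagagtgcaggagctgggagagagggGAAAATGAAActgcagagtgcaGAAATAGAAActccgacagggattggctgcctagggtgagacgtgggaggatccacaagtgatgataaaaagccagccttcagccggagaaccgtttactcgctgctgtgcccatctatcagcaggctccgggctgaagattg
IFIH1 (chr2:162318635-162318934, minus strand): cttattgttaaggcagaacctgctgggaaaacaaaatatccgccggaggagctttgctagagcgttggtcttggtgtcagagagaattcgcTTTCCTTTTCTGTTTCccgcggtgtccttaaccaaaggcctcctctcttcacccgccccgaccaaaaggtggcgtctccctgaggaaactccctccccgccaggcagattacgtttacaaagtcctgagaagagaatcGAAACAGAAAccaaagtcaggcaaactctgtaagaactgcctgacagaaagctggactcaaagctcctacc
TAP1 (chr6:32853655-32853954, minus strand): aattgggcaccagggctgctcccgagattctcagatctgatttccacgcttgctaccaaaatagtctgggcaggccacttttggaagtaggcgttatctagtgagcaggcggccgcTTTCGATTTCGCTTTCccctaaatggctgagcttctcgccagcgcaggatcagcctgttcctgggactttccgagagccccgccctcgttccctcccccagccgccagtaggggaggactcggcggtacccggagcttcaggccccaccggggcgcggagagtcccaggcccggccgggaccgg
IFITM1 (chr11:313790-314089, plus strand): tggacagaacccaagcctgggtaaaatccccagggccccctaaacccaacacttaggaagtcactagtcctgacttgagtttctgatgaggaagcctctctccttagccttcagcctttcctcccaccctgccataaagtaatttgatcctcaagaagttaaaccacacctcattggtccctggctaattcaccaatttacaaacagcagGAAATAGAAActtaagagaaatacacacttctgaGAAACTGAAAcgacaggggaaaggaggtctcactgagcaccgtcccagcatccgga

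IFI6, with 3 matches, ranged from 0.972 to 2.61 CPM in αRes2 and from 2.98 to 7.12 CPM in αMut1, without overlap, and fell by 1.62 (adjusted p = 1.35e-05). IFIH1, also with 3, ranged from 2.85 to 6.53 and from 4.25 to 17.2 CPM, with overlap, and fell by 1.24 (adjusted p = 0.000876). TAP1, with 2 matches at the start shown and none at its second listed start, ranged from 6.56 to 14.4 and from 19.5 to 22.7 CPM, without overlap, and fell by 0.84 (adjusted p = 0.000135). IFITM1 also holds 2 matches. Of the 33 tested members 26 have a promoter in the table, and the motif was found in 7 of the 13 that were called lower and in 7 of the 13 others. Over all 35116 promoters of this length, 1255 (3.57%) hold it. A match is a reading of letters and not a measured binding site.

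Metallothioneins, small proteins that bind zinc and copper, were also lower. Of 8 tested genes 4 fell and 0 rose, with a median change of -0.69, and 3 of the 4 passed in both sets. MT1X, also called lower over all libraries, was not called within 5 to 8. Of the 8 tested, 4 were lower without overlap between the lines. Over all genes 6.24% were called lower, 3.62% passed lower in both sets and 3.28% were lower without overlap. MT1E ranged from 0.157 to 0.729 CPM in αRes2 and from 1.53 to 2.91 CPM in αMut1, a fall of 2.83 (SE 0.26, adjusted p = 5.43e-11). MT1F fell by 1.95 and MT1G by 1.85, each in both sets. These genes are near-identical paralogs, so the split of reads between them is uncertain.

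Matrix and adhesion genes were lower in part. Of 28 tested members 11 fell and 0 rose, with a median change of -0.49, and 7 of the 11 passed in both sets. Over all genes 6.24% were called lower and 3.62% passed lower in both sets. COL6A3, a collagen VI chain, ranged from 0.198 to 2.43 CPM in αRes2 and from 3.98 to 10.6 CPM in αMut1, a fall of 2.90 (adjusted p = 8.25e-07) that was 2.89 within 1 to 4 and 2.96 within 5 to 8. TIMP1, an inhibitor of matrix metalloproteinases, fell from a median of 307 to 219 CPM, a change of -0.51 (adjusted p = 3.55e-06) that was -0.48 with the block, short of the limit. SPARC, a secreted matrix glycoprotein named after its values were seen, fell by 1.07 over all libraries and differed by 0.03 within 5 to 8. ITGA4, the α4 integrin, had 1 count over the 8 αRes2 libraries and 847 over the αMut1 libraries, where it stood at 0 to 10.3 CPM, with the high levels in numbers 5 to 7. The 3 fibroblast markers summed to 4.62 to 6.82 CPM in αRes2 and 6.58 to 21.9 CPM in αMut1, and their part in the result was not tested.

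Megakaryocyte genes were lower in part as well. Of 7 tested, 4 fell and 0 rose (57.1% called, beside 8.96% of all genes). They were THBS1 (thrombospondin), GP6 (the platelet collagen receptor), ITGA2B and ITGB3 (the platelet integrin chains). ITGA2B fell by 1.13 over all libraries (adjusted p = 0.000655), yet within 5 to 8 the difference was 0.03 and with the block adjusted p was 0.0586. The 4 megakaryocyte markers summed to 4.13 to 8.52 CPM in αRes2 and 5.43 to 23.1 CPM in αMut1, with PF4, a defining platelet gene, at 0 in both lines. Of 10 lymphoid genes 3 fell (30% called, beside 8.96% of all genes), CD3E, GZMB and IL2RA. Within 1 to 4, 6 were called lower and 0 higher, and within 5 to 8, 1 lower and 2 higher. CD3E and GZMB were not called within 5 to 8. IL2RA, the interleukin 2 receptor α chain, stood at 0.425 to 6.81 CPM in αMut1 and 0 to 0.729 CPM in αRes2, while LCK, a defining T cell gene, was at 0 in αRes2. In bulk RNA, fewer cells of a type and less RNA per cell cannot be told apart.

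Replication-dependent histone genes were higher, 11 of 33 tested and 0 lower, beside 2.72% of all genes called higher, with a median change of 0.35. Within 1 to 4 the count was 6 and within 5 to 8 it was 12. H2BC4 ranged from 27.1 to 40.4 CPM in αRes2 and from 19.3 to 22.3 CPM in αMut1, without overlap, and rose by 0.70 (adjusted p = 1.03e-05), by 0.61 within 1 to 4 and by 0.76 within 5 to 8. H2BC8 rose by 0.65 (adjusted p = 6.71e-07), with 0.39 within 1 to 4, short of the limit, and 0.92 within 5 to 8. Most of these messages lack a poly(A) tail, so their capture here is partial. With the block 7 were called, and without TMM scaling 6. Of 37 genes of mitosis and DNA replication 0 were called.

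Calls among ribosomal protein and mitochondrially encoded genes depended on the fit and the libraries used. Of 79 ribosomal protein genes 8 rose and 0 fell (10.1% called, beside 8.96% of all genes), with a median change of 0.37. The count called higher was 14 within 1 to 4 (median 0.34) and 8 within 5 to 8 (median 0.40). It was 1 with the block and 2 without αRes2 libraries 3 and 4 (median 0.31). RPS28, a small subunit protein, rose by 1.28 (adjusted p = 0.00024, and 0.0644 with the block). It had 319 CPM in αRes2 library 3, 42.3 to 99.5 CPM in the other αRes2 libraries and 33.4 to 41.3 CPM in αMut1. Of 13 mitochondrial genes 3 rose (23.1% called, beside 8.96% of all genes), with a median change of 0.46. The count was 4 within 1 to 4 (median 0.45) and 9 within 5 to 8 (median 0.64). It was 1 with the block and 1 without libraries 3 and 4, where the median was 0.24. MT-ND6, the subunit encoded on the light strand, rose by 1.37 (adjusted p = 0.00114), from a median of 38.4 to 71.1 CPM, with overlapping libraries.

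Among cancer-testis genes, which are silent in most adult tissues, 9 of 27 rose and 6 fell, so that 55.6% were called beside 8.96% of all genes. The counts differed between the sets, with 12 higher and 2 lower within 1 to 4 and 7 higher and 8 lower within 5 to 8, and were 10 and 2 with the block. MAGEC1, on chromosome X, ranged from 28.9 to 41.6 CPM in αRes2 and from 117 to 135 CPM in αMut1, a fall of 1.84 (SE 0.15, adjusted p = 1.97e-12) seen in both sets. MAGEA4 stood at 0.753 to 2.88 CPM in αRes2 and at 0.0333 to 0.458 CPM in αMut1 and rose by 3.00 (adjusted p = 4.25e-05), by 5.50 within 1 to 4 and by 1.27 within 5 to 8. Members of the MAGE family share sequence, so their reads may be split.

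In metabolism and stress lists, SLC7A5, the large neutral amino acid transporter, rose from a median of 246 to 396 CPM (0.53, adjusted p = 4.61e-06). It was among 3 of 29 ATF4 and CHOP stress genes called, with PHGDH (serine synthesis, 0.62) and the cytokine GDF15 (0.55), all higher, or 10.3% beside 8.96% of all genes. None of the 3 was called in both sets: SLC7A5 changed by 0.66 within 1 to 4 and 0.37 within 5 to 8, PHGDH by 0.41 and 1.12, and GDF15 by 0.88 and 0.20. Without TMM scaling 1 gene of that list was called, and with the block 5. HMGCS1, an early enzyme of cholesterol synthesis, rose by 0.59 (adjusted p = 0.000171), and so did NSDHL, a later one, by 0.76. They were the 2 of 25 cholesterol synthesis genes called (8%). HMGCS1 changed by 0.35 within 1 to 4 and 0.89 within 5 to 8, and NSDHL by 1.40 and 0.26, each called in 1 set. PDIA4, a protein disulfide isomerase of the endoplasmic reticulum, fell by 0.58 (adjusted p = 2.55e-06). It changed by -0.38 within 1 to 4, short of the limit, and by -0.82 within 5 to 8. It was the 1 of 20 endoplasmic reticulum chaperones called (5%). TET2, a dioxygenase that oxidises methylated DNA, fell from a median of 33.5 to 21.4 CPM (-0.62, adjusted p = 3.82e-06). BIRC3, an inhibitor of apoptosis, fell by 1.27 (adjusted p = 1.02e-07). The death receptor FAS and BCL2L11 (BIM) also fell, BCL2L11 by 0.27 within 5 to 8, short of the limit. These were the 3 of 25 apoptosis and p53 genes called (12%). The shares of these lists stand beside 8.96% of all genes.

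RNA polymerase II subunits (13) and the list of chromatin architecture, BAF and Mediator genes (40) had 0 called. G4-binding and G4-unwinding proteins had 1 of 33 called (3.03%), SLIRP, an RNA-binding protein of mitochondria, at 0.52. The BCR-ABL1 amplicon, which K562 carries in many copies, had 1 of 17 called (5.88%), CCDC116 at 0.79. With the number as a block neither was called. Of 31 glycolysis and hypoxia genes ENO2, ANKRD37 and NDRG1 fell (9.68%), though ANKRD37 and NDRG1 were not called within 5 to 8. Of 25 immediate early genes SPRY1 fell (4%), by 3.16 over all libraries and by 0.30 within 5 to 8. Of 27 DNA methylation and Polycomb genes PHC1 fell beside TET2 (7.41%), though PHC1 was not called with the block. Of 7 granulocyte and monocyte genes CEBPA (a myeloid transcription factor) rose and CD33 fell (28.6%). Each of these shares stands beside 8.96% of all genes called.

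The largest rises that held in both sets were led by WDR72, a WD-repeat protein known from tooth enamel formation. WDR72 (chr15:53513741-53762878, minus strand) stood at 13.1, 15.6 and 16.9 CPM in αRes2 and at 0.0678, 0.173 and 0.432 CPM in αMut1. All 8 αRes2 libraries lay far above all 7 αMut1 libraries, with a change of 6.19 (SE 0.29, adjusted p = 2.72e-19), 6.47 within 1 to 4 and 5.94 within 5 to 8. ALDH1L1, a folate enzyme, stood at 4.17 to 9.69 CPM in αRes2 and at 0 to 1.52 CPM in αMut1, with 0 counts in 2 libraries there, and rose by 3.11 (adjusted p = 7.32e-07). HMCN1, an extracellular hemicentin, rose by 2.46, by 4.28 within 1 to 4 and by 1.46 within 5 to 8. CT55, a cancer-testis antigen, rose by 2.39, by 4.53 and 1.42 in the same order.

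TRIM67 and DHRS2 had like levels in both αMut1 sets. TRIM67, a TRIM-family ubiquitin ligase, ranged from 9.52 to 13.9 CPM in αRes2 and from 2.58 to 3.44 CPM in αMut1, a rise of 1.97 (SE 0.14, adjusted p = 2.53e-13). DHRS2, a short-chain dehydrogenase, ranged from 40.8 to 54.6 and from 10.6 to 15.0 CPM, a rise of 1.86 (SE 0.18, adjusted p = 6.24e-10). BMX, a Tec-family kinase, rose by 2.16, without overlap. TNS4 (a tensin of focal adhesions) rose by 2.28, WIPF3 by 1.63, SMARCA1 (an ISWI remodelling ATPase) by 1.58 and LINGO1 (a leucine-rich repeat membrane protein) by 1.49, of which LINGO1 and TNS4 overlapped. Within 1 to 4 and then 5 to 8 the rises were 3.60 and 0.52 for SMARCA1, 1.07 and 2.53 for TNS4, 1.04 and 2.50 for WIPF3, 1.61 and 1.32 for LINGO1, and 2.32 and 1.95 for BMX. SMARCA1 averaged 1.69 CPM in αMut1 1 to 4 and 12.8 CPM in αMut1 5 to 7.

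The largest falls that held in both sets were of genes whose αMut1 levels often differed between its sets. CHST15, a chondroitin sulfotransferase, had 4 counts in all αRes2 libraries and stood at 0.0998 to 21.8 CPM in αMut1. The lines overlapped, with αRes2 library 2 at 0.109 CPM and αMut1 library 3 at 0.0998 CPM. Within 1 to 4 CHST15 averaged 0.0356 CPM in αRes2 and 0.151 CPM in αMut1, and in αMut1 5 to 7 it averaged 20.9 CPM. AMBN, the enamel protein ameloblastin, ranged from 0.0942 to 1.46 CPM in αRes2 and from 1.49 to 35.2 CPM in αMut1, a fall of 5.71 (adjusted p = 3.14e-06), 6.07 within 1 to 4 and 3.21 within 5 to 8. PCDH10, a protocadherin, ranged from 1.15 to 4.63 CPM and from 31.2 to 64.3 CPM, a fall of 4.21 (SE 0.44, adjusted p = 3.29e-09). EGFLAM (pikachurin, a synaptic matrix protein) had like levels in both αMut1 sets, 12.1 to 16.99 CPM against 0.463 to 1.43 CPM in αRes2, a fall of 3.92 (SE 0.30, adjusted p = 7.85e-13).

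The remaining 8 fell by 3.49 to 4.81. They were MYBPC2 (a muscle myosin-binding protein), GNG2 (a G protein γ chain), ELSPBP1, CILP (a cartilage matrix protein), TMEM176A, MYO16 (an unconventional myosin), CD109 (a membrane-anchored coreceptor) and CAPN6 (a calpain-like protein). In none of them did a library of αRes2 reach the αMut1 range.

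Some stretches of chromosomes differed across many of their genes. Of 283 windows of 10 Mb with at least 20 tested genes, 265 had a median change within 0.2 of 0, and the medians ran from -0.41 to 0.49. The highest was the window from 150 Mb to the end of the long arm of chromosome X, with 88 genes, 31 called higher and 0 lower. Its median was 0.49 over all libraries, 1.00 within numbers 1 to 4 and 0.08 within 5 to 8. Per library, the median level of these genes against the αWT mean was -0.183 to 0.165 in αRes2, -0.913 to -0.890 in αMut1 1 to 4 and -0.0101 to 0.0574 in αMut1 5 to 7. The αMut1 libraries 1 to 4 thus lay apart from both. αRes1 5 to 8 lay at -0.811 to -0.736, αRes3 at -0.754 to -0.736 and αRes4 at -0.707 to -0.661.

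The lowest window, from 70 to 80 Mb of chromosome 4, had 57 genes, 0 called higher and 20 lower. Its median was -0.41, -0.36 within 1 to 4 and -0.40 within 5 to 8. It holds AMBN (chr4:70592256-70607288, plus strand). From 70 to 160 Mb, 73 of 355 genes were called lower (20.6%) and 2 higher, with a median of -0.26, whereas from 0 to 70 Mb 24 of 252 were lower (9.52%) and 6 higher. Gene copy number was not measured, and its part in these differences was not tested.

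**Figure D1:**
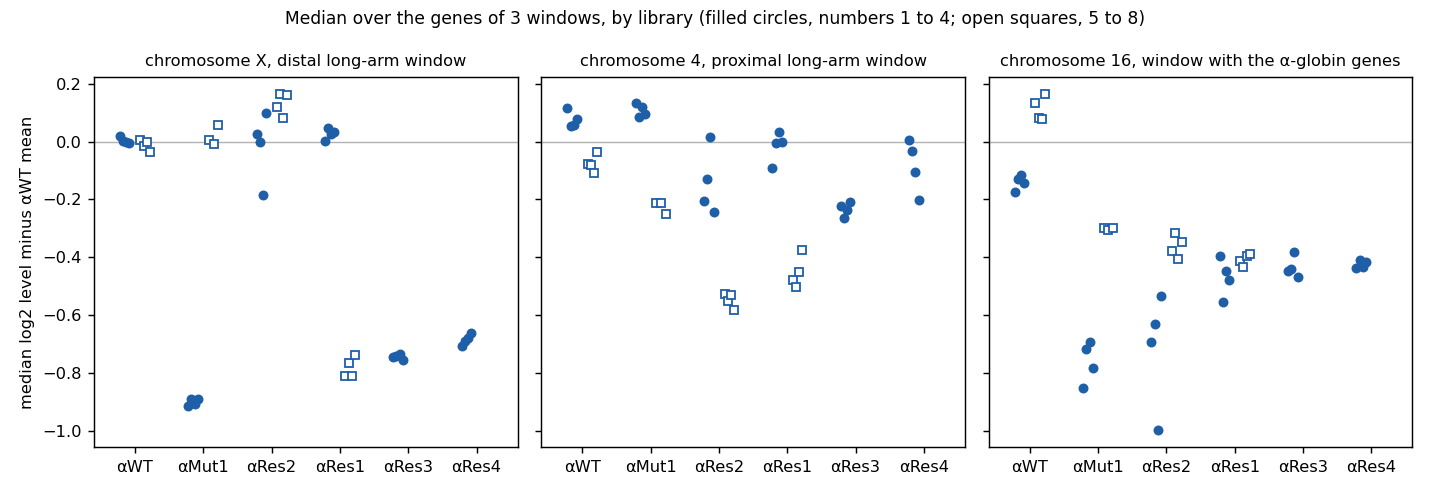
Median over the tested genes of 3 windows of 10 Mb (log2 level minus the αWT mean, y axis), each point a library of the line named on the x axis. In the chromosome X window αMut1 1 to 4 lie at -0.913 to -0.890, near αRes1 5 to 8, αRes3 and αRes4, while αRes2 and αMut1 5 to 7 lie near 0. In the chromosome 16 window with the α-globin genes, αRes2 and αMut1 both lie below αWT.

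αRes2 was next set against the restored clones most like it, which share the parent and the kind of insertion. Between αRes2 and αRes1, 1695 genes were called (9.29%), 3793 within numbers 1 to 4 (21%) and 3295 within 5 to 8 (18.2%). Against αRes3 4474 were called (24.5%), and against αRes4 5646 (30.9%). αRes3 and αRes4 were counted under the second alignment reference throughout.

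The α-globin genes did not set αRes2 apart from all of them. HBA1 averaged 258 ± 51.9 CPM in αRes2 (n = 8), 170 ± 64.2 in αRes1 (n = 8), 358 ± 59.2 in αRes3 (n = 4) and 279 ± 25.9 in αRes4 (n = 4). αRes2 minus αRes4 was -0.12 (SE 0.20, adjusted p = 0.655) and αRes2 minus αRes3 -0.48 (SE 0.20, adjusted p = 0.0503), neither called. αRes2 minus αRes1 was 0.60 (adjusted p = 0.00711), but 1.04 within 1 to 4 (adjusted p = 9.9e-08) and 0.30 within 5 to 8 (adjusted p = 0.0683). HBZ was lower in αRes2 than in αRes3 (-0.92, adjusted p = 0.000676) and not called against αRes4 (-0.32) or αRes1 (0.18). Within the sets, HBZ in αRes2 minus αRes1 was 0.87 for 1 to 4 (adjusted p = 1.01e-07), which was called, and -0.21 for 5 to 8 (adjusted p = 0.131).

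Genes called higher in αRes2 than in each of the other 3 restored clones numbered 93 (0.51%), and those called lower 216 (1.18%). WDR72 averaged 15.5 CPM in αRes2, 2.12 ± 0.807 in αRes3 and 0.216 CPM or less in αRes1 and αRes4, with differences of 2.89 to 7.13. ALDH1L1 averaged 6.37 CPM in αRes2, 0.0833 in αRes1, 0.0587 in αRes3 and 2.15 in αRes4. KLHL13, a substrate adaptor of a cullin ubiquitin ligase, averaged 6.67 CPM in αRes2 and 1.13 to 1.93 CPM in the other 3, and PRKCH, protein kinase Cη, 6.76 CPM and 0.749 to 2.51 CPM. The PRKCH difference between αRes2 and αWT was 0.05 (SE 0.19, adjusted p = 0.855).

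Of the genes lower in αRes2, MTUS1, a microtubule-associated protein, averaged 0.130 CPM in αRes2 and 3.69, 2.29 and 1.097 CPM in αRes1, αRes3 and αRes4. SYTL4 (granuphilin, of secretory granules) averaged 1.03, 4.89, 13.7 and 10.5 CPM in that order of clones, C12orf75 1.87, 12.1, 15.1 and 11.2 CPM, and RHOBTB1 3.16, 16.3, 14.8 and 19.1 CPM. Against αRes1 the differences of C12orf75 (-0.07, adjusted p = 0.806) and SYTL4 (-0.33, adjusted p = 0.302) were not called within numbers 1 to 4, and both were called within 5 to 8 (-3.75 and -2.62). Their changes from αMut1, -2.92 and -2.46 over all libraries, were not called with the block (adjusted p = 0.0685 and 0.075).

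**Figure D2:**
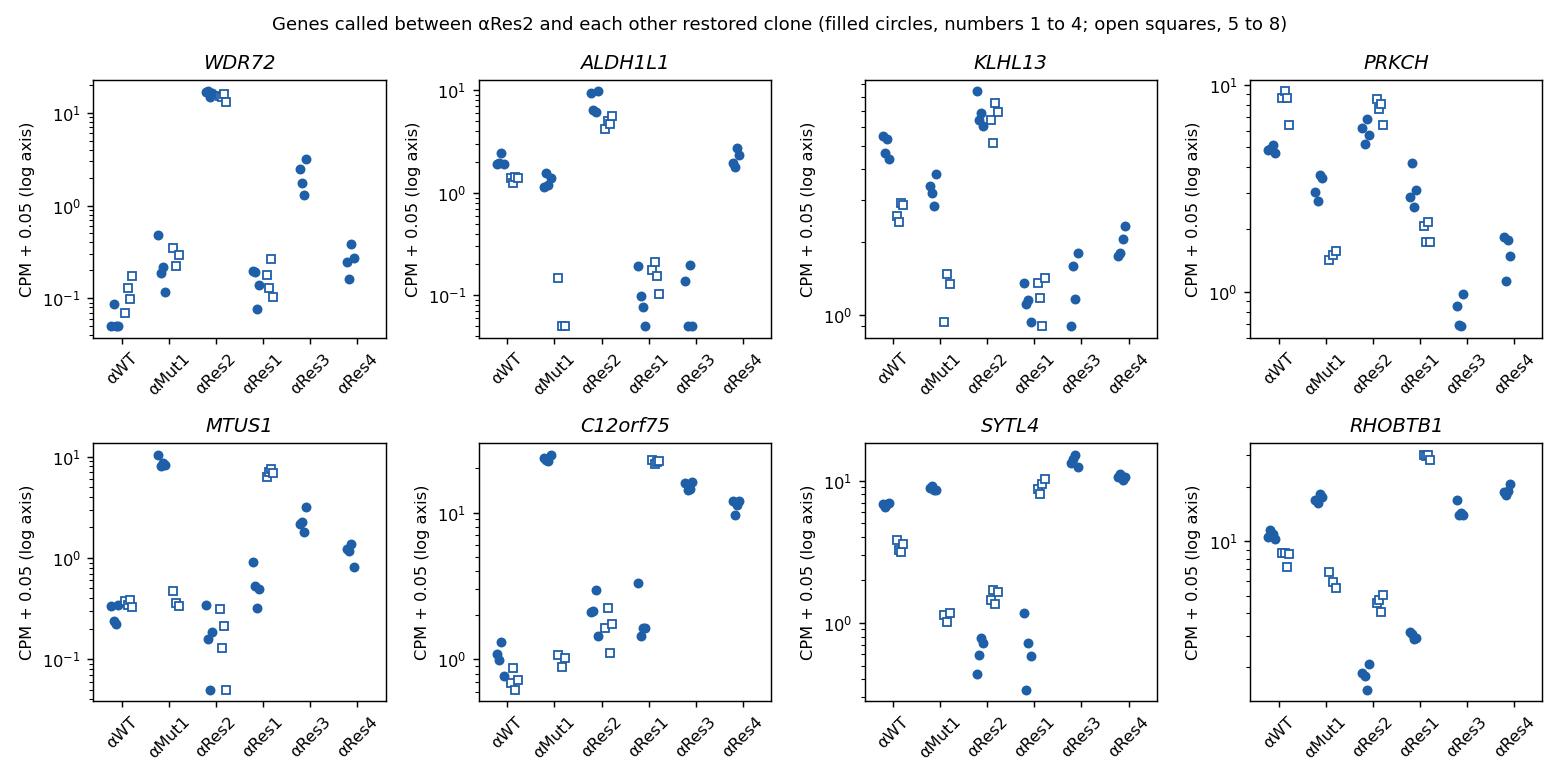
CPM plus 0.05 on a log axis (y) of 8 genes called between αRes2 and each of αRes1, αRes3 and αRes4, by line (x), each point a library. WDR72 is at 13.1 to 16.9 CPM in all αRes2 libraries. C12orf75 and SYTL4 split between the sets in both αMut1 and αRes1, in opposite order.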

How the data were processed

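The authors' processing, as the study's methods and the submitters' notes give it, trimmed reads with cutadapt, aligned them to hg38 with bwa mem, used SAMtools 1.15.1, marked duplicates with Picard and ran featureCounts with GENCODE annotation. The strand setting and the rule for multiply mapped reads are not given in the sources used here. The deposited values are raw counts for each gene in each library, 1 file per library.

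Counts were analysed with edgeR 4.0.16 in R 4.3.3. TMM scaling, dispersions and quasi-likelihood tests were computed over the 43 libraries of αWT, αMut1, αMut2 and the 4 restored clones, keeping genes with a mean of at least 10 counts. The fit within library numbers and its interaction term used the 31 libraries of lines with both sets. P-values were adjusted by Benjamini-Hochberg over all genes tested. Two-sided exact permutation tests were run on globin CPM. Depth limits low genes, and counting error alone would allow 3 counts where 0 were seen. Named genes were the globins and the cluster neighbours. To these came the 12 largest rises and falls of protein-coding genes called and passing in both sets at 5 CPM or more. Next were the 6 genes with the highest and the 6 with the lowest interaction term between the sets. Up to 4 called genes per list by adjusted p were added, with 4 genes each way that set αRes2 apart from every other restored clone. Some genes these rules name are not reported here. The members and lists were chosen with earlier results of these data known.

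The library numbers are shared by the lines, and the deviations of same-numbered αRes2 and αMut1 libraries from their group means had correlations of 0.125 to 0.256, all over 0.1. They were therefore treated as pairs in an alternative fit with the number as a block, although within a set the correlations were -0.210 to 0.105. The αRes2 library that correlated best with an αMut1 library never had the same number. The block thus also takes up the difference between the sets, and true pairing of libraries is not established. No replicate pair agreed within sampling noise. On simulated data of 18169 genes for αRes2 against αMut1, the test recovered 78% of 100 genes shifted by a log2 value of 1 and 96% of 100 shifted by 2. The simulated libraries had no shift between the sets of a line, unlike the real ones. These rates therefore need not hold for the real libraries. Alternatives were RLE scaling, no TMM, DESeq2 1.42.0, other count filters, 15 libraries alone, a set term, the block, each set alone and leaving out libraries. Coordinates are hg38 from GENCODE, and promoters are from RefSeq.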

Additional observations from a re-analysis of the deposited data

Results flagged for a closer look

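In 24 checks of single libraries, 3 lay far from the others of their group, where chance gives about 1 in 20. HBG2 in αRes2 library 3 was at 816.5 CPM, the mitochondrial share of the same library was 3.48%, and αMut1 library 1 had 1.77018e+07 counted reads, the fewest of its line.

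The change between αRes2 and αMut1 differed between the library sets for 15 named genes, by edgeR's interaction term, given as the change in numbers 5 to 8 minus that in 1 to 4. Among the globins it was -0.40 for HBA2 (adjusted p = 0.032), -0.71 for HBQ1 (adjusted p = 0.00591) and -0.43 for HBE1 (adjusted p = 0.0158). In all 3 the change was larger within numbers 1 to 4.

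The other 12 genes were those with the largest interaction. It was 8.67 for BCHE, 8.12 for LRATD1, 7.58 for XKR8, 7.34 for POPDC3, 7.22 for CDH18 and 6.66 for PRUNE2. These 6 stood at 6.12 to 34.3 CPM in αMut1 1 to 4 and at 0.322 CPM or less in αMut1 5 to 7. It was -9.20 for FGF13, -7.79 for CHST15, -7.74 for LDOC1, -7.22 for MME, -6.82 for FSTL5 and -6.51 for CALN1, which stood at 0.240 CPM or less in αMut1 1 to 4 and at 15.3 to 63.3 CPM in αMut1 5 to 7. In αRes1 the order of the sets was the opposite for all 12.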

How the results depend on the processing

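The 1635 calls became 1019 (281 higher, 738 lower) with a mean of at least 50 counts, 3177 (1218 higher, 1959 lower) within numbers 1 to 4, with 1143 higher within 5 to 8, and 1504 with the replicate block, 1223 of them shared. Leaving out 1 library gave 1425 to 1801 calls, 419 to 567 higher and 1006 to 1252 lower, and log2 changes of 0.81 to 0.95 for HBA1, 0.73 to 0.89 for HBA2, 0.69 to 0.81 for HBZ and 0.03 to 0.29 for HBQ1. HBQ1 was called within 1 to 4 only (0.55). Against αRes1 the calls were 3793 within 1 to 4 and 3295 within 5 to 8. The chromosome X window moved to 1.00 and 0.079, and the chromosome 16 window to -0.062 within 5 to 8. Signs reversed within 5 to 8 for BCHE (2.33), LRATD1 (4.96), PRUNE2 (2.76), ITGA2B (0.026), GZMB (0.71), C12orf75 (0.81) and SYTL4 (0.50), and within 1 to 4 for LDOC1 (1.605), MME (4.95) and CALN1 (1.30). The cause was not tested. The share of calls that were higher was 30.3%, 19.9% without TMM, 38.5% within 1 to 4 (of 3138 calls among genes tested in both fits) and 47.6% within 5 to 8 (of 2385 such calls). Of 103 named genes called, 85 stayed called with the block, 75 within 5 to 8 and 89 within 1 to 4. Beyond the genes and lists given above, the block ended the calls of CCDC116, PHC1, SLIRP, PAGE2, PRUNE2, C12orf75 and SYTL4. It changed no other call of a named gene. Leaving out a library ended at least 1 of 17 calls, among them IFITM1, CD47, TIMP1, SLC7A5 and GDF15.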
